A study of Canis lupus familiaris with 8 samples.

Results

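The outer kinetochore and spindle checkpoint genes described here are NDC80, NUF2, SPC24, SPC25, KNL1, CENPE, CENPF, BUB1, BUB1B and TTK. They were found by gene symbol, 10 of the 34637 symbols in the count tables, and each symbol stood in 1 row. The samples were peripheral blood mononuclear cells (PBMCs), a blood fraction of mainly lymphocytes and monocytes, from 5 obese dogs and 3 normal dogs. By breed, obese dog 1 was a Dachshund and obese dog 2 a Chihuahua, while obese dogs 3 and 4 were both Labrador retrievers and obese dog 5 a Welsh Corgi. All 3 normal dogs were Beagles, so body condition and breed cannot be told apart in any value below, and no age is stated in the labels. RNA was counted by 3′ tag sequencing: reads come from the 3′ end of a transcript, so that its length has little bearing on its count. The genes were picked with the difference between obese and normal dogs already known, so their own levels and fold changes are given as a description, with no test.

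The kinetochore is the protein structure on each centromere that holds a chromosome to the spindle in mitosis. Its outer layer holds the NDC80 complex, made of the products of NDC80, NUF2, SPC24 and SPC25, which grips microtubules, and the scaffold KNL1. TTK, BUB1 and BUB1B are the kinases and the kinase-like protein of the spindle checkpoint, which delays anaphase until every kinetochore is attached, while CENPE and CENPF join the fibrous corona around unattached kinetochores. Most of these genes are transcribed mainly in G2 and M phase, and most circulating lymphocytes and monocytes are not dividing. In RNA from mixed blood cells, fewer dividing cells and less of these RNAs per cell cannot be told apart.

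Library totals ran from 10264202 to 14910982 counts in the obese dogs and from 10408203 to 14811053 in the normal dogs, and values are CPM, counts scaled by library size with TMM factors. The labelled cell mixture was represented by its markers: the 6 T cell markers summed to 214 to 688 CPM in the obese dogs and 173 to 183 CPM in the normal dogs, and the 6 monocyte markers to 695 to 1313 CPM in the obese dogs and 1371 to 2552 CPM in the normal dogs. VCAN alone carried the monocyte difference, with 201 to 851 CPM in the obese dogs and 920 to 2191 CPM in the normal dogs. The median log2 fold change of the 6 monocyte markers was 0.13, with 4 of them above 0. The 5 NK cell markers summed to 18.3 to 56.4 CPM in the obese dogs and 19.9 to 25.1 CPM in the normal dogs. Platelet markers, 4 of them measured and PF4 not analysed here, summed to 45.3 to 833 CPM in the obese dogs and 3.54 to 18.7 CPM in the normal dogs. Of the 5 B cell markers, which summed to 23.8 to 165 CPM in the obese dogs and 24.0 to 48.3 CPM in the normal dogs, MS4A1 was at 0 counts in normal dog 2. Obese dog 3 stood apart, with 875 CPM of erythroid markers, against 4.08 to 19.0 CPM in the other obese dogs and 6.82 to 10.01 CPM in the normal dogs. It also had 4502 CPM of neutrophil markers, against 108 to 497 CPM in the other obese dogs and 1211 to 5009 CPM in the normal dogs.

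Summed over the 10 genes, obese dogs 1 to 5 gave 459, 845, 560, 1031 and 1098 counts, and normal dogs 1 to 3 gave 4349, 1552 and 5199. On the CPM scale these sums were 52.1, 55.9, 63.5, 57.5 and 64.0 in obese dogs 1 to 5 and 306, 172 and 332 in normal dogs 1 to 3. The 5 obese dogs lay close together at 58.6 ± 5.13 CPM (SD, n = 5), while the normal dogs spread over 270 ± 85.8 CPM (SD, n = 3), with normal dog 2 well below the other two. The counting error was small beside this: the exact 95% Poisson interval was 60.3 to 67.9 CPM in obese dog 5, the highest of the obese dogs, and 163 to 181 CPM in normal dog 2, the lowest of the normal dogs. The mean of the obese dogs was 4.603-fold lower than that of the normal dogs, and 4.63-fold to 4.97-fold lower under the other scalings tried. How close the obese dogs lay depended on the scaling. Their SD was 5.48 CPM with RLE and 6.76 CPM with upper-quartile factors. By library totals alone it was 13.7 CPM, with obese dogs at 44.7 to 73.6 CPM and normal dogs at 149 to 351 CPM.

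**Figure D1:**
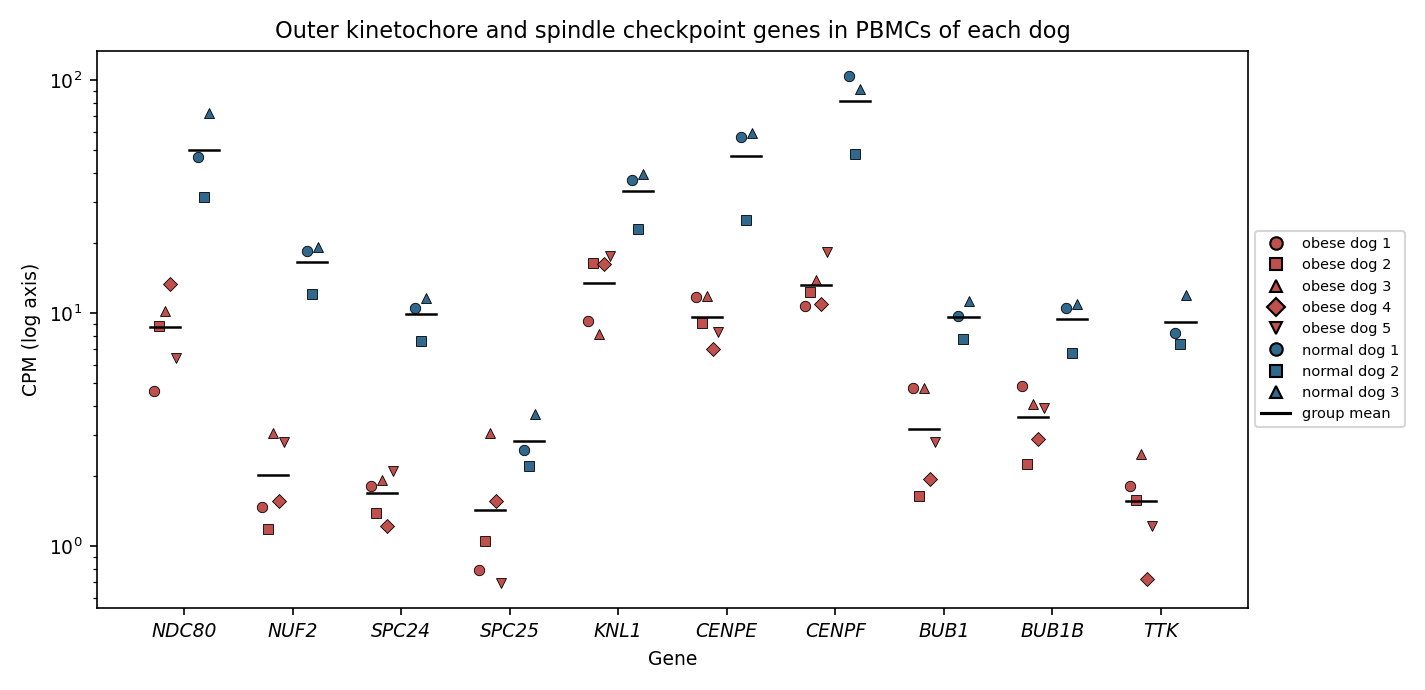
CPM (log axis) of each of the 10 genes in each dog, with obese dogs in red and normal dogs in blue, 1 symbol per dog and a bar at the group mean. Every obese dog lies below every normal dog for each gene except SPC25, where obese dog 3 lies within the range of the normal dogs.

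NDC80 and NUF2 form the microtubule-binding arm of the NDC80 complex. NDC80 had 4.65, 8.86, 10.2, 13.3 and 6.42 CPM in obese dogs 1 to 5, against 46.8, 31.6 and 72.1 CPM in normal dogs 1 to 3. NUF2 had 1.47, 1.19, 3.06, 1.56 and 2.80 CPM in the obese dogs, against 18.5, 12.1 and 19.3 CPM in the normal dogs. For both genes all the obese dogs were lower than all the normal dogs, and for NUF2 the lowest normal dog had 3.94 times the level of the highest obese dog, the widest gap of the 10 genes. The log2 fold change, obese minus normal, was −3.04 for NUF2 (standard error 0.41), the lowest of the 10, and −2.53 for NDC80 (standard error 0.38). NDC80 overlaps an uncharacterised non-coding gene in the reference annotation, which had 1874 counts in all beside 2696 for NDC80 and moved with it (r = 0.993 over the 8 libraries). With no strand setting known, reads of these genes cannot be told apart. METTL4, a methyltransferase gene that also overlaps NDC80, had a log2 fold change of 0.40.

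SPC24 and SPC25 form the other end of the complex, which docks on the inner kinetochore. SPC24 had 1.81, 1.39, 1.93, 1.23 and 2.10 CPM in the obese dogs, against 10.5, 7.64 and 11.7 CPM in the normal dogs, again with no overlap; its log2 fold change was −2.56 (standard error 0.37). SPC25 had 0.794, 1.06, 3.06, 1.56 and 0.700 CPM in the obese dogs, against 2.60, 2.21 and 3.70 CPM in the normal dogs. SPC25 was the 1 gene of the 10 whose groups overlapped, because obese dog 3 was higher than normal dogs 1 and 2. It was also the least abundant in both groups, with 7 to 28 counts per obese dog and 20 to 58 per normal dog, and its log2 fold change of −0.996 had the largest standard error of the 10, 0.58.

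KNL1 is the scaffold on which the checkpoint proteins assemble. It had 9.30, 16.4, 8.17, 16.2 and 17.6 CPM in obese dogs 1 to 5, against 37.3, 23.0 and 39.7 CPM in the normal dogs, and its log2 fold change was −1.30 (standard error 0.34). The groups did not overlap. Obese dogs 2, 4 and 5 were nearest to the normal dogs, while obese dogs 1 and 3 were lower. The 2 Labrador retrievers, obese dogs 3 and 4, stood in different parts of this range.

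CENPE, a kinesin motor that carries chromosomes towards the middle of the spindle, had 11.8, 9.12, 11.9, 7.03 and 8.28 CPM in the obese dogs, against 57.3, 25.2 and 59.1 CPM in the normal dogs. CENPF, a large coiled-coil protein of the corona, had 10.8, 12.4, 13.8, 10.99 and 18.3 CPM in the obese dogs, against 104, 48.0 and 91.9 CPM in the normal dogs. In both genes normal dog 2 lay between the obese dogs and the other normal dogs, which were close to each other. The log2 fold changes were −2.30 for CENPE (standard error 0.33) and −2.62 for CENPF (standard error 0.30), the smallest standard error of the 10.

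TTK, the kinase that starts checkpoint signalling, had 1.81, 1.59, 2.50, 0.725 and 1.22 CPM in the obese dogs, against 8.23, 7.41 and 11.9 CPM in the normal dogs. BUB1, a kinase that binds KNL1, had 4.76, 1.65, 4.76, 1.95 and 2.80 CPM in the obese dogs, against 9.77, 7.75 and 11.3 CPM in the normal dogs. BUB1B, whose product BUBR1 is part of the inhibitor of the anaphase-promoting complex, had 4.88, 2.25, 4.08, 2.90 and 3.91 CPM in the obese dogs, against 10.5, 6.75 and 10.97 CPM in the normal dogs. All 3 were lower in every obese dog, with a wide gap for TTK and a narrow one for BUB1B, where normal dog 2 had 1.38 times the level of obese dog 1. The log2 fold changes were −2.56 for TTK (standard error 0.45), −1.60 for BUB1 (standard error 0.44) and −1.39 for BUB1B (standard error 0.38).

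All 10 genes passed the filter on low counts and had a negative log2 fold change, with a median of −2.41, where 44.7% of the 20632 genes tested were below 0 and the median of all genes was 0.09. The obese and normal dogs did not overlap for 9 of the 10, where 5.16% of all genes tested were lower in the obese dogs without overlap. In the fit of edgeR's quasi-likelihood test over all genes, 5 of the 10 had an adjusted p under 0.05, namely NDC80, NUF2, SPC24, CENPE and CENPF, where 0.184% of all genes were lower and 0.233% changed in either direction at that threshold. Since the genes were picked on this contrast, nothing is read from these shares. The count of 5 moved with single dogs. It was 9 without obese dog 3, where 5.03% of all genes were lower at the threshold. It was 0 without obese dog 1, 2 or 4 or normal dog 3. It was 1 without obese dog 5 or normal dog 1, and 3 without normal dog 2. Lower calls over all genes also moved, from 38 with all dogs. They were 2, 2, 3 and 12 with obese dogs 1, 2, 4 and 5 left out in turn. With normal dogs 1, 2 and 3 left out in turn they were 33, 20 and 2. Over the same 8 fits the median log2 fold change of the 10 genes ran from −2.67 to −2.16.

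Within a dog, the make-up of the 10 genes' summed counts removes the shift that they have in common. The order of mean levels in the obese dogs, from high to low, was KNL1, CENPF, CENPE, NDC80, BUB1B, BUB1, NUF2, SPC24, TTK and SPC25, and every neighbouring pair in this order had overlapping ranges. In the normal dogs the order was CENPF, NDC80, CENPE, KNL1, NUF2, SPC24, BUB1, BUB1B, TTK and SPC25. There the ranges of KNL1 and NUF2, of NUF2 and SPC24, and of TTK and SPC25 did not overlap, and the other neighbours did. Spearman's rho between the mean log2 levels of the obese and the normal dogs was 0.84 over the 10 genes, given as a description across genes. The levels are of 3′ tags, so a 3′ end missing from the annotation would lower a gene's place in this order.

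NUF2 took 3.37 ± 1.16% of the 10 genes' counts in the obese dogs (SD, n = 5) and 6.29 ± 0.643% in the normal dogs (SD, n = 3), and the groups did not overlap. BUB1B took 6.19 ± 2.01% in the obese dogs and 3.56 ± 0.326% in the normal dogs, also without overlap. The order of the closest dogs was uncertain for both genes, since their exact 95% binomial intervals overlapped. This bears on the closest dogs only, not on the group means. For BUB1B these intervals were 2.80 to 5.58% in obese dog 2 and 3.02 to 5.02% in normal dog 2. For NUF2 they were 3.20 to 6.94% in obese dog 3 and 5.19 to 6.48% in normal dog 3. The shares of the other 8 genes overlapped between the groups. CENPF took 22.4 ± 3.59% in the obese dogs and 29.9 ± 3.59% in the normal dogs, and SPC25 took 2.41 ± 1.47% and 1.09 ± 0.221%. Shares add up to the whole, so a lower share of 1 gene goes with a higher share of others.

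KNL1 split the obese dogs. It took 29.3, 28.2 and 27.4% of the 10 genes' counts in obese dogs 2, 4 and 5, and 17.9 and 12.9% in obese dogs 1 and 3, against 12.2, 13.4 and 11.96% in the normal dogs. BUB1 had the reverse pattern, with 9.15 and 7.50% in obese dogs 1 and 3 and 2.96, 3.39 and 4.37% in obese dogs 2, 4 and 5, against 3.20, 4.51 and 3.40% in the normal dogs. The exact 95% binomial interval of the BUB1 share was 6.67 to 12.2% in obese dog 1 and 1.92 to 4.34% in obese dog 2, and such intervals cover counting error only. Obese dogs 1 and 3 were also the obese libraries with the lowest totals, 10264202 and 11831571 counts, and the highest share taken by 1 gene, 14.4 and 20.6%. The part of these library features in the split was not tested.

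**Figure D2:**
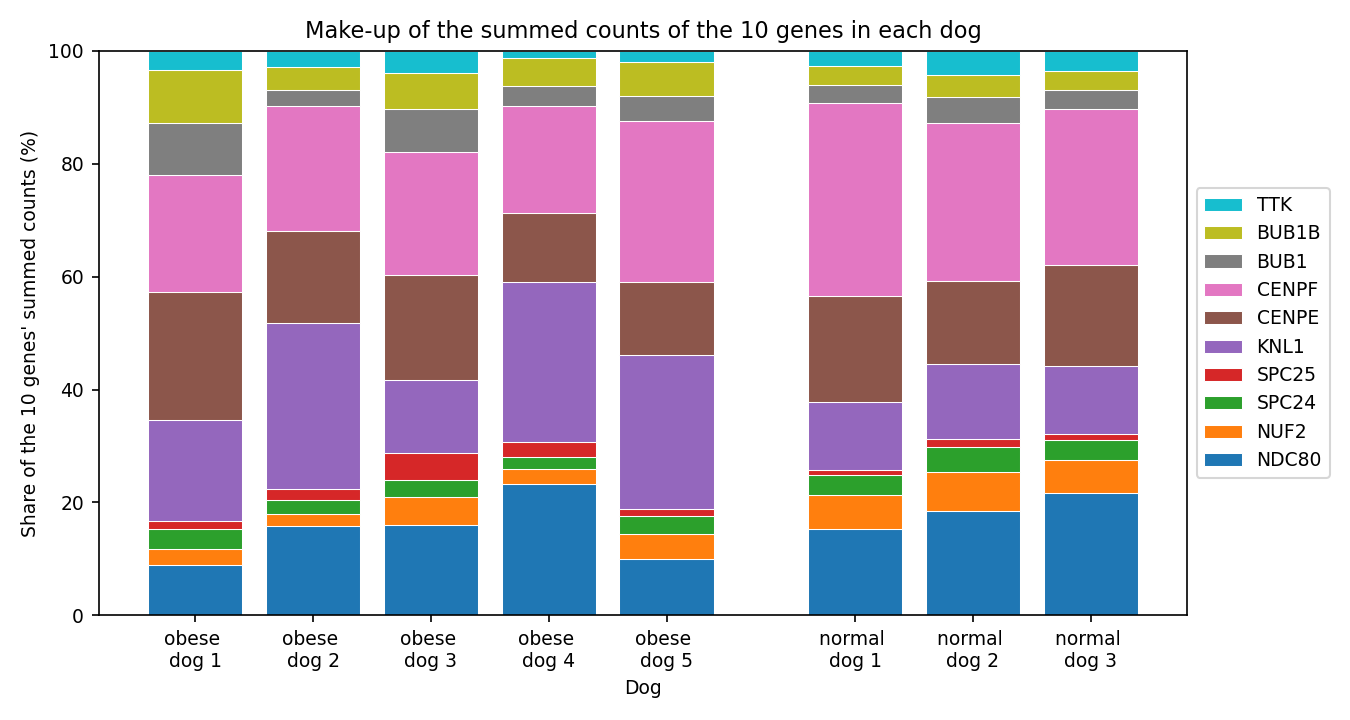
Share (%) of the 10 genes' summed counts taken by each gene, as 1 stacked bar per dog, with the obese dogs left of the normal dogs. KNL1 takes 27.4 to 29.3% in obese dogs 2, 4 and 5 and 11.96 to 13.4% in the normal dogs.

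Counts within the NDC80 complex differed by dog as well. There were 5.86, 8.38, 3.33, 8.54 and 9.17 NDC80 counts per SPC25 count in obese dogs 1 to 5, against 18.0, 14.3 and 19.5 in the normal dogs, so the ratio was lower in every obese dog. These ratios rest on few SPC25 counts: 7, 16, 27, 28 and 12 in the obese dogs and 37, 20 and 58 in the normal dogs. No interval was computed for them, and the NDC80 counts may include reads of the gene that overlaps it. NDC80 counts per NUF2 count were 3.15, 7.44, 3.33, 8.54 and 2.29 in the obese dogs, against 2.53, 2.62 and 3.74 in the normal dogs, and these overlapped. Obese dogs 2 and 4 stood out with the most NDC80 per NUF2, and the uncharacterised gene that overlaps NDC80 had its highest obese levels in the same dogs, 5.75 and 9.09 CPM.

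Across all 8 dogs the genes moved together. All 45 pairs among the 10 genes had a positive Pearson correlation of log2 CPM, with a median of 0.895 and a lowest value of 0.44, for SPC25 with KNL1. The difference between the groups is part of these values. With each group's mean removed, 35 of the 45 pairs were above 0, the median was 0.39, and the range was −0.60 for KNL1 with BUB1 to 0.89 for BUB1 with BUB1B. All of these are descriptions over 8 libraries under 1 scaling.

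Of 13673 other tested genes with a characterised name, the 10 whose log2 CPM over the 8 dogs was most like the mean of the 10 genes had Pearson correlations of 0.967 to 0.990. From the highest they were ADAM32, DIAPH3, DEPDC1B, MASTL, ZNF532, CENPP, CLSPN, GAREM1, POLQ and POLH. ADAM32 had 9.55 CPM in the obese dogs and 21.2 CPM in the normal dogs on average, and DIAPH3, a formin, had 15.7 and 97.5 CPM. MASTL is a kinase that restrains a phosphatase during mitosis, and CLSPN encodes claspin of the replication checkpoint, with 5.61 CPM in the obese dogs and 35.5 CPM in the normal dogs. Once group means were removed, the 5 most alike were TMEM52, CERS2, TRAPPC8, STK32B and STRADB (0.952 to 0.987). None of these had a correlation above 0.379 over the dogs with group means kept. The genes from ADAM32 to POLH had correlations of 0.692 to 0.927 with group means removed.

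MKI67, which encodes the proliferation marker Ki-67, did not keep step with the 10 genes in 1 dog. It had 20.1, 14.5, 144, 13.3 and 23.4 CPM in obese dogs 1 to 5, against 147, 89.7 and 116 CPM in the normal dogs, so that obese dog 3 lay among the normal dogs. In that dog there were 2.27 MKI67 counts per count of the 10 genes, while the other obese dogs had 0.231 to 0.386 and the normal dogs 0.350 to 0.523. TOP2A, the mitotic topoisomerase, had 40.4 CPM in obese dog 3, against 14.3 to 29.6 CPM in the other obese dogs and 53.9 to 96.3 CPM in the normal dogs. MKI67 did not pass in edgeR's quasi-likelihood test (log2 fold change −1.45, standard error 0.78, adjusted p = 0.4), and without obese dog 3 it was −2.76 (standard error 0.28, adjusted p = 0.00113, edgeR). Over all 15 alternatives its adjusted p ran from 0.00113 to 0.703.

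**Figure D3:**
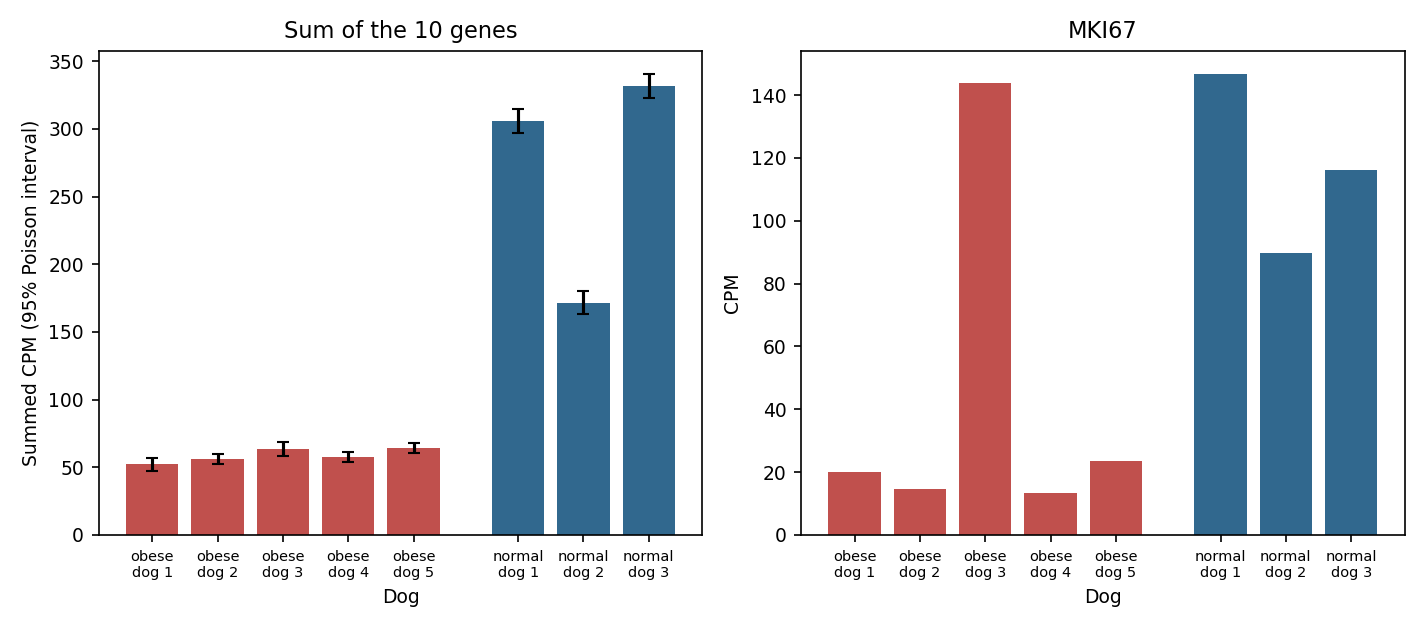
Summed CPM of the 10 genes with exact 95% Poisson intervals (left) and CPM of MKI67 (right), 1 bar per dog, obese dogs in red and normal dogs in blue. Obese dog 3 has 63.5 CPM of the 10 genes, like the other obese dogs, and 144 CPM of MKI67, like the normal dogs.

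Other genes of the kinetochore, the checkpoint and anaphase were read from 8 lists by role. Of 82 genes listed, 79 were in the tables and 78 passed the filter on low counts. By edgeR's quasi-likelihood test 0 of the 78 fell and 0 rose at an adjusted p under 0.05, where 0.184% of all genes fell and 0.0485% rose. At an unadjusted p under 0.05 there were 22 lower and 0 higher, where 6.73% of all genes were lower and 9.01% higher. DESeq2 gave 11 lower and 0 higher at its adjusted threshold (2.21% and 3.09% of all genes), and limma-voom with quality weights gave 22 and 1 (9.96% and 9.15%). Without obese dog 3 edgeR gave 15 lower and 0 higher (5.03% and 3.25%). The 15 were CENPA, CENPK, CENPP, CENPT, CENPU, HJURP, DSN1, SPAG5, NDEL1, CDC20, NEK2, AURKB, CDCA8, UBE2C and UBE2S. The 78 genes had a median log2 fold change of −0.30, with 51 below 0.

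Of the 20 inner kinetochore genes tested, 16 were below 0 and the median was −0.64. HJURP, the chaperone that loads the centromeric histone CENPA, had 2.59 ± 1.04 CPM in the obese dogs and 14.6 ± 5.61 CPM in the normal dogs. Its log2 fold change was −2.49 (standard error 0.42), and it missed the threshold narrowly (adjusted p = 0.051, edgeR), and so did CENPP, at −1.55 (adjusted p = 0.051, edgeR; standard error 0.26). Both passed with RLE and with upper-quartile scaling, while their adjusted p over the 15 alternatives ran from 2.86e-05 to 0.428 for CENPP and from 1.49e-05 to 0.469 for HJURP. CENPP, of the network that sits on centromeric chromatin, had 15.1 ± 2.32 CPM in the obese dogs and 44.1 ± 11.6 CPM in the normal dogs. Its gene overlaps OMD, OGN, ASPN and ECM2 in the reference annotation, and OMD and OGN counts moved with it (r = 0.933 and 0.929 over the 8 libraries), which leaves the source of such reads unknown.

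The direct partners of the 10 genes stood on both sides of 0. ZWINT was listed with the MIS12 complex, which links KNL1 and the NDC80 complex to the centromere. In this list 2 of 4 were below 0 and the median was −0.20. The other 2, MIS12 at 0.07 (standard error 0.75) and NSL1 at 0.01 (standard error 0.44), were near 0 beside their standard errors. DSN1 had 1.56 ± 0.955 CPM in the obese dogs and 7.50 ± 4.04 CPM in the normal dogs (adjusted p = 0.238, edgeR), and ZWINT had 10.2 ± 5.03 and 13.6 ± 5.40 CPM (adjusted p = 0.702, edgeR). Of the 6 microtubule couplers 3 were below 0, with a median of −0.47. SPAG5, or astrin, had 1.53 ± 0.932 CPM in the obese dogs and 4.52 ± 1.79 CPM in the normal dogs, and its partner KNSTRN had 0.825 ± 0.725 and 4.01 ± 1.66 CPM. KNSTRN overlaps an uncharacterised gene (r = 0.922 between their levels). Neither SPAG5 nor KNSTRN passed (adjusted p = 0.219 and 0.258, edgeR).

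Of 8 genes of the corona and of the complex that recruits dynein, 6 were below 0, with a median of −0.31. NDE1 and NDEL1, which regulate dynein, had log2 fold changes of −1.20 and −1.18 and did not pass (adjusted p = 0.179 and 0.192, edgeR), and NDEL1 ranged from 178 to 554 CPM in the obese dogs and 516 to 1009 CPM in the normal dogs. Both genes overlap others whose levels went with theirs, MYH11 for NDE1 (r = 0.774) and MYH10 for NDEL1 (r = 0.877). NDEL1 also overlaps an uncharacterised gene (r = 0.903) with 8617 counts in all and a log2 fold change of −1.54. The checkpoint partners had a median of −0.66 over 7 genes, 5 of them below 0. NEK2, a centrosomal kinase, had 0.971 ± 0.418 CPM in the obese dogs and 5.68 ± 2.17 CPM in the normal dogs, and PLK1, a mitotic kinase whose gene overlaps ERN2, had 2.51 ± 1.48 and 8.90 ± 3.30 CPM. Neither passed (adjusted p = 0.0837 and 0.184, edgeR). NEK2 did pass with DESeq2, with limma-voom and with edgeR without obese dog 3, and PLK1 with DESeq2 and limma-voom. Under the other alternatives neither passed.

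All 6 tested genes of the chromosomal passengers and shugoshins were below 0, with a median of −1.02. CDCA8, or borealin, had 1.58 ± 0.766 CPM in the obese dogs and 9.31 ± 4.33 CPM in the normal dogs and did not pass (adjusted p = 0.0877, edgeR). AURKB, the kinase of the passenger complex, had 19.1 ± 6.16 CPM in the obese dogs and 45.3 ± 1.31 CPM in the normal dogs, without overlap, and did not pass (adjusted p = 0.109, edgeR). Both CDCA8 and AURKB did pass with DESeq2, with limma-voom and with edgeR without obese dog 3, and under no other alternative.

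The phosphatases that act at kinetochores and the anaphase-promoting complex, both used by cells for other tasks too, lay around 0. The median of all genes was itself 0.09 with TMM, 0.08 with RLE and −0.03 with upper-quartile factors. The 8 phosphatase genes had a median of 0.08, and the regulatory subunits PPP2R5A and PPP2R5C had log2 fold changes of 0.53 and 0.77 without passing (adjusted p = 0.35 and 0.322, edgeR). The 19 genes of the anaphase-promoting complex and its targets had a median of 0.235, with 10 above 0. UBE2C, its ubiquitin-conjugating enzyme, had 1.61 ± 0.651 CPM in the obese dogs and 6.57 ± 2.02 CPM in the normal dogs, and did not pass (adjusted p = 0.106, edgeR). UBE2C did pass with DESeq2, with limma-voom and with edgeR without obese dog 3, and under no other alternative. CDC27, a core subunit, had 58.6 ± 16.6 CPM in the obese dogs and 98.1 ± 13.9 CPM in the normal dogs (adjusted p = 0.229, edgeR). Whether the 10 genes differ in response from these lists was not tested.

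**Figure D4:**
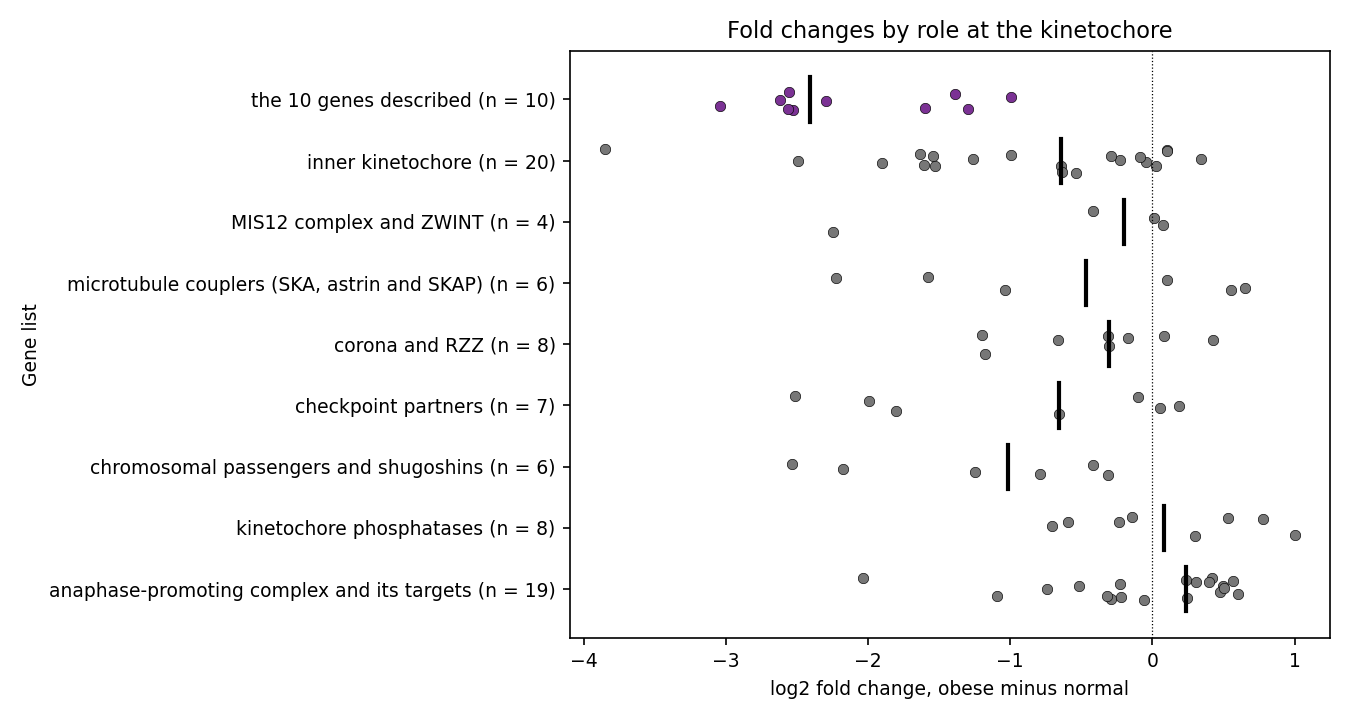
Log2 fold change (obese minus normal) of each tested gene, 1 point per gene, by role, with a bar at the median of each list. The 10 genes lie between −3.04 and −0.996, the inner kinetochore list has a median of −0.64, and the anaphase-promoting complex list has a median of 0.235.

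Marker sums of other cells separated the groups as well. The sums for cycling and plasma cells were lower in every obese dog than in any normal dog, and the sums for T cells and platelets were higher. Log2 fold changes were below 0 for 5 of 5 markers of cycling cells and 6 of 7 tested plasma cell markers, and above 0 for 6 of 6 T cell and 4 of 4 platelet markers. The monocyte sum was also lower in every obese dog, through VCAN. The 5 markers of cycling cells, MKI67 and TOP2A among them, summed to 179 to 311 CPM in the obese dogs and 615 to 790 CPM in the normal dogs. PCNA was the largest part of the cycling sum in every dog except obese dog 3. Its level was 119 to 238 CPM per obese dog, against 318, 611 and 354 CPM in normal dogs 1 to 3. The 8 plasma cell markers summed to 132 to 249 CPM in the obese dogs and 302 to 1078 CPM in the normal dogs. Normal dog 2, the lowest normal dog for the 10 genes, was lowest for plasma cells (302 CPM). Its cycling cell sum was the highest (790 CPM), through PCNA. Among the normal dogs, MKI67, TOP2A, TYMS and RRM2 were each lowest in normal dog 2. TNFRSF17, a receptor of plasma cells, was the 1 marker of all 9 lists that passed the test, and it fell by 4.39 on the log2 scale (adjusted p = 0.0228, edgeR). Among the plasma cell markers MZB1 and DERL3 were at 0 counts in obese dog 1, as was SDC1. In the other lists NCR1, CXCR2, GP9, HBM and SLC4A1 were at 0 counts in some dog. The part of these cells in the levels of the 10 genes was not tested.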

How the data were processed

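The authors deposited 1 table per dog of raw counts per gene symbol, whole numbers that were not normalized, as the values show. Trizol RNA went into Lexogen QuantSeq libraries, per the labels' protocols, and the submitters' processing notes name Bowtie2 and bedtools. Their versions, and the genome build, annotation and strand, are not stated in the labels. The 35048 rows were the same in all tables, and where a symbol was repeated, its row of highest mean was used under that name. Overlaps come from the RefSeq table of UU_Cfam_GSD_1.0, used for names and neighbours only, and no sequences are shown.

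CPM were computed on TMM library sizes. Counts were fitted in R 4.3.3 with edgeR 4.0.16 (filterByExpr, 20632 genes, TMM, robust glmQLFit and glmQLFTest), with Benjamini-Hochberg adjustment over all genes and a threshold of 0.05. Standard errors were derived from the fold change and its F statistic (absolute value over root F). Correlations use log2 CPM with a prior count of 2, except those between overlapping genes. For these a small constant was added to the CPM itself before the log2. DESeq2 1.42.0 and limma 3.58.1 were alternatives, and the fits were tested on simulated data. No 2 libraries agreed within sampling noise (lowest chi-square per degree of freedom 40.5). The 10 genes, the 8 lists by role and the 9 marker lists were chosen with earlier results of these data known. Genes named were the 10, the 2 of each list with the smallest p, the most alike genes, and MKI67, TOP2A and others chosen after their values were seen. Groups come from the labels. The alternatives were other scalings, no filter, each dog left out and a replicate block. The reads have no stated molecular identifiers, so intervals cover counting error only. The p-values rest on the spread between separate dogs.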

Additional observations from a re-analysis of the deposited data

Results flagged for a closer look

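In 47 sets of 5 obese dogs, the gap between the highest or lowest dog and its neighbour was set against the range of the 5. Dixon's 95% critical value was exceeded in 5 sets, where chance flags about 1 in 20. In 4 of the 5 the dog was obese dog 3. It had 2.27 MKI67 counts per count of the 10 genes, 3.18 CPM of SPAG5 (against 0.992 to 1.34 CPM in the other obese dogs), 4502 CPM of neutrophil markers and 875 CPM of erythroid markers. Obese dog 1 had the lowest sum of NK cell markers, 18.3 CPM, against 46.5 to 56.4 CPM in the other obese dogs and 19.9 to 25.1 CPM in the normal dogs. None of the 10 genes, and not their sum, was among the 5.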

How the results depend on the processing

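The log2 fold changes of the 10 genes kept their sign in all 15 alternatives, and 149 of 150 values moved by less than the spread between dogs; the exception was TTK in limma-voom (−3.20). The median of the 10 ran from −2.68 to −2.13. Counts of calls moved much more. With DESeq2 they were 428 lower and 599 higher over all genes, 9 of the 10 genes and 11 of the partner genes lower. With limma-voom and quality weights they were 2055 and 1887 over all genes, 10 of the 10, and 22 lower and 1 higher among the partners. RLE and upper-quartile factors each gave 2 partner genes lower. Leaving out 1 dog at a time gave 2 to 1023 genes lower and 0 to 661 higher, 0 to 9 of the 10 genes, 0 to 15 partner genes lower, and a rho of 0.76 to 0.87 for the order of levels. With the dog number as a replicate block over dogs 1 to 3 of each group the counts were 0 over all genes, 0 of the 10 and 0 partners, and they were also 0 for the same 6 dogs without the block, an alternative chosen after seeing the data. The numbers name separate dogs and do not pair them: deviations of same-numbered dogs correlated at 0.06, −0.287 and 0.015. Of 240 values of the named partner genes, 33 passed the threshold under an alternative and none changed sign. Depth limits SPC25 most, with as few as 7 counts in a dog.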

Other observations

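Some other mitotic genes, chosen after their values were seen, were higher in obese dog 3 than in any other dog. For UBE2S and SGO1 the normal dogs were in turn above the other obese dogs, and for SKA3 they overlapped. UBE2S, a partner of UBE2C at the anaphase-promoting complex, had 139 CPM in that dog, against 7.40 to 16.1 CPM in the other obese dogs and 35.96 to 55.4 CPM in the normal dogs. SKA3, a microtubule coupler, had 289 CPM there, against 48.2 to 70.4 CPM in the other obese dogs and 56.9 to 74.0 CPM in the normal dogs. SGO1, which protects centromeric cohesion, had 9.19 CPM in obese dog 3, against 0.567 to 3.32 CPM in the other obese dogs and 5.69 to 6.63 CPM in the normal dogs. CENPT, an inner kinetochore protein that binds the NDC80 complex, had 0, 5, 0, 12 and 0 counts in obese dogs 1 to 5 and 43, 43 and 35 counts in normal dogs 1 to 3, and did not pass (adjusted p = 0.147, edgeR). CENPT did pass with DESeq2 (adjusted p = 0.0117), with limma-voom (adjusted p = 0.0141) and with edgeR without obese dog 3 (adjusted p = 0.0399). UBE2S did not pass (adjusted p = 0.936, edgeR). It did with limma-voom (adjusted p = 0.00982) and with edgeR without obese dog 3 (adjusted p = 0.00873).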
